A study of Mus musculus with 2 samples.

Results

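The 107 genes described here form the rodent microRNA (miRNA) cluster within Sfmbt2. They are every tabled gene that lies on the plus strand of mouse chromosome 2 between 10370000 and 10600000 (GRCm38, mm10), out of 1973 gene identifiers in the count tables. Whole thymus was sampled from 2 littermate pups of the mouse strain B6NCrl at 0 days after birth, with 1 small RNA library (below 30 nucleotides) per pup. Replicate 1 is pup 2 and replicate 2 is pup 3. No treatment or genetic change is named, sex was not collected, and both libraries belong to 1 group, so there is no contrast between conditions. Levels are counts per 1000000 reads assigned to the gene strand (CPM), errors are SD (n = 2 libraries), and both libraries may share sources of error that these SDs do not show.

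A miRNA is cut from a hairpin in a longer transcript, and the mature strand guides Argonaute proteins to messenger RNAs, mainly through its seed, bases 2 to 8. Sfmbt2 encodes a Polycomb group protein. It is imprinted in the mouse, with expression from the paternal copy in early embryos and extraembryonic tissues, and the placenta is the tissue in which its intronic miRNAs are best known. The miR-297, miR-466, miR-467 and miR-669 families of this intron arose by repeated duplication in rodents, and many of their hairpins are rich in alternating U and G. Such likeness matters for sequencing, because a read that fits several loci equally well cannot be assigned to 1 of them.

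The tables assigned 2734133 reads to miRNA genes in replicate 1 and 1289151 in replicate 2, on the gene strand. A further 56.3% and 57.5% of all reads mapped to several places and were counted for no gene, so a count of 0 for a gene with copies is no limit on its mature miRNA. At these depths a count of 0 leaves room for up to 3 counts of assigned reads, or 1.10 CPM in replicate 1 and 2.33 CPM in replicate 2. Intervals and limits cover counting error only, since no molecular identifiers tell PCR copies from separate molecules. The tissue label was checked with miRNAs of thymic cells and of other organs. Mir181a-1, a miRNA of developing T cells, stood at 36632 CPM ± 832. Mir181b-2, of the same family but on another chromosome, stood at 9475 ± 2491. The epithelial miRNA Mir205 stood at 9875 CPM ± 749, the endothelial Mir126a at 32674 ± 6540, and Mir143, of smooth muscle and other mesenchyme, above all of these at 50145 ± 10120. These levels also lack reads that fit several places, so their order need not be that of the mature miRNAs. The liver miRNA Mir122 stood at 99.1 CPM ± 29.9. The heart miRNA Mir208b differed between the pups, with 21.9 CPM in replicate 1 and 185 in replicate 2.

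The RefSeq miRNA table (GRCm38.p6) matched 0 of the 107 cluster genes by symbol. It holds 8 mature sequences of the same families from other chromosomes, with 8 different seeds. The 4 shown here, written 5′ to 3′ with the seed in capitals, let a reader see the alternating U and G, or C and A, of these names.
miR-466k (chr3:85467396-85467418, plus strand): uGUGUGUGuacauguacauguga
miR-669n (chr3:115979905-115979924, plus strand): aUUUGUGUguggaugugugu
miR-466q (chr3:28419988-28420007, plus strand): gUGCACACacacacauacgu
miR-467g (chr5:34732872-34732892, minus strand): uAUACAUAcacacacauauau
Their genes had almost no counts. Reads that fit several places were not counted, and the genome was not searched for copies of these sequences. Of the 10 tabled genes with these family names outside the cluster, 9 had 0 counts in both libraries, and Mir466q had 0 in replicate 1 and 1 in replicate 2.

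All 107 cluster genes lay in intron 10 of the Sfmbt2-201 transcript (chr2:10461473-10523944), on the strand of Sfmbt2 (ENSMUSG00000061186.15, chr2:10370510-10595253), and 0 overlapped a Sfmbt2 exon. They ran from 10465287 to 10518279, a span of 53.0 kb. No neighbours overlapped, and the median gap between neighbours was 210 bases. The annotated hairpins were 73 to 127 bases long, with a median of 101. In GENCODE M21, 59 of the genes carry a family name and 48 a predicted gene (Gm) name. GENCODE M21 has 119 miRNA genes in this window, and the 12 others were not analysed here.

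Counts in the newborn thymus came from a few of these genes. The cluster held 28180 counts in replicate 1 and 15059 in replicate 2, which is 1.03% (95% Wilson interval 1.019 to 1.043) and 1.17% (1.150 to 1.187) of assigned counts, with a mean of 1.10% ± 0.0972. With at least 10 counts in both libraries called detected, 9 of 107 genes (8.41%) were detected, against 285 of the 1866 other identifiers (15.3%). A further 18 genes had counts below that minimum, and 80 (74.8%) had 0 in both libraries, against 64.8% of the other identifiers. The 9 detected genes supplied 99.8% ± 0.0411 of the cluster's counts. Mir467c, Mir467e and Mir467d alone supplied 83.7% in replicate 1 and 85.5% in replicate 2.

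Strand was unambiguous in this cluster. Reads on the strand opposite to its genes numbered 0 in both libraries, which allows a share of up to 0.0106% in replicate 1 and 0.0199% in replicate 2. Over all tabled genes, 14.6% and 14.3% of assigned reads lay on the opposite strand.

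The 3 leading genes carry the miR-467 name, a family of the cluster whose members are told apart by letters. Mir467c (ENSMUSG00000077049.2, chr2:10473931-10474027) had 9014 counts in replicate 1 and 4980 in replicate 2, or 3297 and 3863 CPM (3580 ± 400). Mir467e (ENSMUSG00000076948.2, chr2:10505721-10505807) had 7942 and 3874 counts, or 2905 and 3005 CPM (2955 ± 70.9). Mir467d (ENSMUSG00000077021.2, chr2:10507630-10507714) had 6644 and 4016 counts, or 2430 and 3115 CPM (2773 ± 485). All 3 thus had similar counts, and Mir467c had the most in both pups. Reads that fit several loci are missing from these counts, so they cannot rank the 3 mature miRNAs by abundance. Among all tabled genes Mir467c ranked 57th by count in replicate 1 and 50th in replicate 2.

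The order of the other pair was not fixed. Mir467d over Mir467e was 0.837 in replicate 1 (exact 95% interval 0.810 to 0.864) and 1.04 in replicate 2 (0.992 to 1.08), so their mean levels differed by less than the spread between the pups. Mir467c exceeded Mir467e by 1.13 times in replicate 1 and 1.29 times in replicate 2, and Mir467d by 1.36 and 1.24 times. These ratios are taken within a library and do not depend on scaling. Read counts of small RNAs are not scaled by hairpin length here, since a read covers a whole mature product, and differences in ligation or mapping between miRNAs were not measured.

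The 5 detected miR-669 genes had fewer counts than these 3 miR-467 genes, over a wide range. Mir669o (ENSMUSG00000077086.1, chr2:10514300-10514395) had 2244 and 1043 counts, or 821 and 809 CPM (815 ± 8.26). Mir669l (ENSMUSG00000076959.1, chr2:10468971-10469068) had 1580 and 759 counts, or 578 and 589 CPM (583 ± 7.69). Both were nearly level between the pups, and Mir669o exceeded Mir669l by 1.42 times in replicate 1 (exact 95% interval 1.33 to 1.52) and 1.37 times in replicate 2 (1.25 to 1.51). Mir669c (ENSMUSG00000076118.1, chr2:10509296-10509404) followed with 383 and 201 counts, or 140 and 156 CPM (148 ± 11.2). Mir669e (ENSMUSG00000080653.1, chr2:10467495-10467613) had 87 and 37 counts, or 31.8 and 28.7 CPM (30.3 ± 2.21). Mir669h (ENSMUSG00000080594.1, chr2:10518155-10518279), the last gene of the cluster, had 60 and 19 counts, or 21.9 and 14.7 CPM (18.3 ± 5.10). From Mir669o to Mir669h these 5 genes fell in the same order in both libraries. Here too, reads that fit several loci are missing, so the counts cannot rank the mature miRNAs by abundance.

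Of the miR-466 family, 1 gene was detected. Mir466n (ENSMUSG00000077991.1, chr2:10513741-10513834) had 175 and 94 counts, or 64.0 and 72.9 CPM (68.5 ± 6.30), and it stood between Mir669c and Mir669e in both pups. Across the 9 detected genes mean levels ran from 18.3 to 3580 CPM with a median of 583 CPM, and 5 of the 9 lay above 239 CPM, the median over the 294 detected genes of the tables. Apart from the exchange of Mir467d and Mir467e, the order of all 9 was the same in both libraries.

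**Figure D1:**
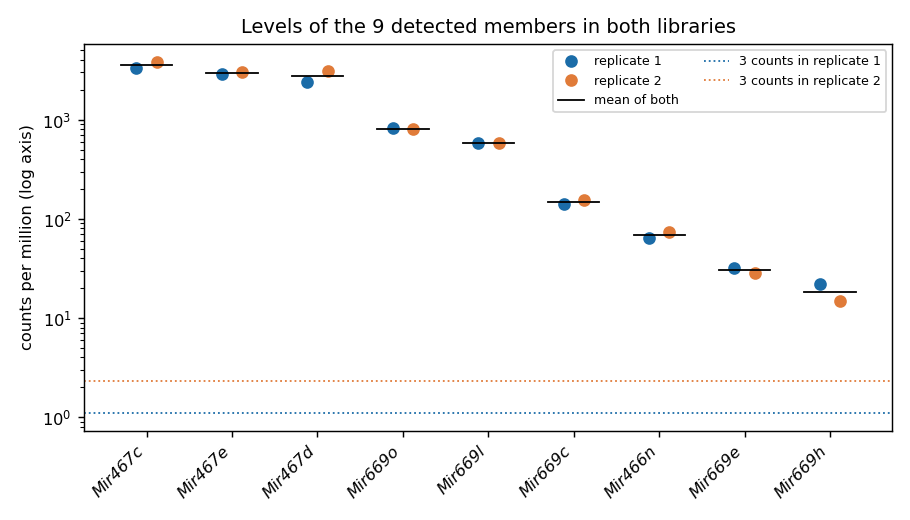
CPM (log axis) of the 9 detected cluster genes, with a point for each library, a line at the mean, and dotted lines at the level of 3 counts in each library. Mir467c, Mir467e and Mir467d sit between 2430 and 3863 CPM, and the other 6 genes descend to 14.7 CPM.

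By name, the miR-467 genes supplied 84.6% ± 1.23 of the cluster's counts and the miR-669 genes 14.6% ± 1.25. The miR-466 genes supplied 0.663% ± 0.0166, the miR-297 genes 0.0678% ± 0.0356 and the genes with predicted names 0.0567% ± 0.00509. Detection was uneven within each name: 3 of 14 miR-467, 5 of 20 miR-669, 1 of 20 miR-466, 0 of 5 miR-297 and 0 of 48 predicted genes. The largest name group by number of genes, the predicted one, thus had 42 genes at 0 in both libraries and 17 and 8 counts in all. No 20-base word of their own (defined below) was found for 10 of 14 miR-467 and 22 of 48 predicted genes. The same held for 6 of 20 miR-466, 4 of 20 miR-669 and 0 of 5 miR-297 genes. With reads that fit several loci uncounted, these shares cannot rank the families by abundance.

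**Figure D2:**
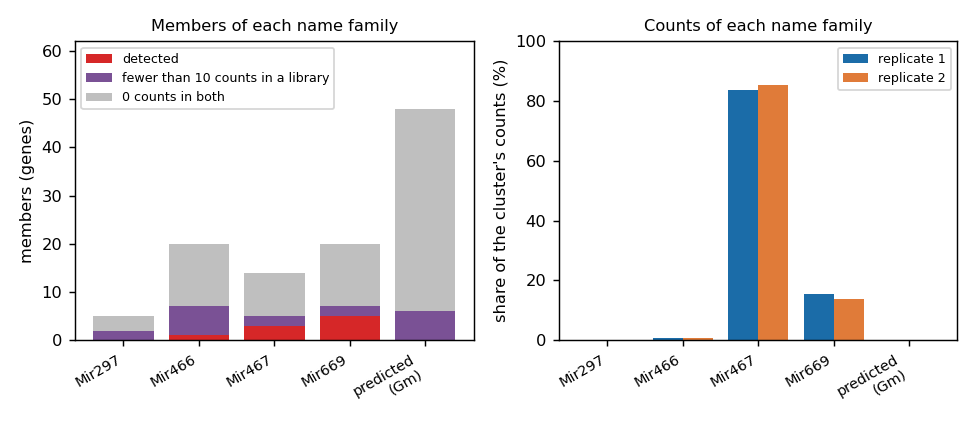
Left, the number of cluster genes in each name family, divided into detected genes, genes with fewer than 10 counts in a library, and genes at 0 in both. Right, the share of the cluster's counts (%) from each name family in each library, which is over 80% for Mir467 in both pups.

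The 18 genes with few counts held 51 counts in replicate 1 and 36 in replicate 2. Mir297a-2 came closest to the minimum, with 8 counts in replicate 1 and 14 in replicate 2 (2.93 and 10.9 CPM). Gm22239 had 8 and 3 counts, Mir467b 3 and 3, Mir466l 5 and 2, and Mir467a-1 1 and 3. The other 13 had at most 4 counts in either library. Of the 18, 12 had counts in both libraries and 6 in a single library. Mir297a-2 in replicate 2, at 10.9 CPM, lay above the 2.33 CPM that 3 counts equal there.

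The cluster's centre was almost empty of counts. Its 10 tabled Mir467a genes, numbered copies of a single miRNA, recur at a median spacing of 2462 bases (shortest 2413, longest 4880), and together they had 1 count in replicate 1 and 3 in replicate 2. The stretch from the first to the last of them, 11.1 to 38.0 kb from the start of the cluster, holds 55 genes. Of these, 2 had any count (Mir467a-1 and Mir467b), with 4 and 6 counts in all, and 0 were detected. All 9 detected genes lay outside it, 3 among the 20 genes on the left and 6 among the 32 on the right. Mir467c is the third of these 3, at 8.64 kb, and Mir467e and Mir467d lie at 40.4 and 42.3 kb.

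Shared sequence moved with this pattern. Each GENCODE M21 hairpin was divided into overlapping words of 20 bases, and a word was called its own if it occurred once in that hairpin and, on either strand, in no miRNA hairpin at another locus (2202 hairpins in all). The median gene of the cluster had 25.3% of its words to itself and shared a word with 19 other genes, whereas the median of the 1787 other matched genes was 100% and 0 genes. No word of their own was found for 42 of the 107 cluster genes (39.3%), against 216 of the 1787 others (12.1%). Of those 42, 40 lay in the stretch of the Mir467a copies and 2 outside it. The hairpins of all 107 cluster genes also differed in composition, with a median of 30.7% U and 18.4% G against 26.0% and 27.3% in the other genes. The median of the longest run of alternating U and G was 7 bases against 4.

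All 9 detected genes had words of their own, from 37.9% in Mir467d to 95% in Mir669e, with a median of 57.4%. Mir467c had 60.3% and Mir467e 57.4%. Among the 80 genes at 0 the median was 0%, 41 had no word of their own, and 38 had a hairpin identical to another in the annotation. The few-count genes lay between, with a median of 47.4%. Own sequence did not go with counts in every case: 14 of the 80 genes at 0 had at least as large a share of own words as Mir467d, up to 94.8%. In the other direction, Mir467a-1 had 0% and yet 1 and 3 counts. The word count covers whole hairpins and annotated miRNA genes only, the rest of the genome was not searched, and the tables do not say which arm a read came from. The part of shared sequence in the counts of 0 was not tested.

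**Figure D3:**
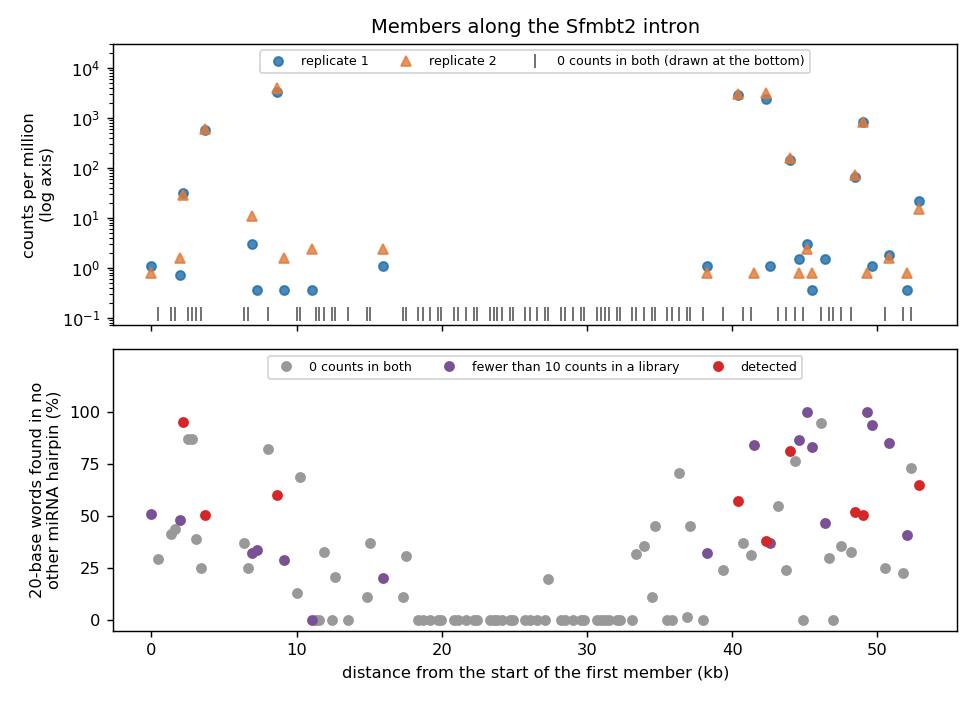
Upper panel, CPM (log axis) of each cluster gene with a count, in each library, against its distance in kb from the start of the first gene, with tick marks at the bottom for the 80 genes at 0 in both libraries (a gene at 0 in a single library has a point for the other library only). Lower panel, the percent of each hairpin's 20-base words found at no other miRNA locus, which is 0 for most genes between 18 and 33 kb, where no gene has a count.

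Between the pups, Mir467d and Mir467c were higher in replicate 2 by more than counting error, and the other 7 detected genes were not called. The test for each gene was an exact binomial one, two-sided, on library sizes scaled by TMM (the trimmed mean of M-values), with Benjamini-Hochberg adjustment over all 294 detected genes. This compares 2 libraries, not conditions, and 43.5% of all tested genes were called in either direction (20.1% were higher and 23.5% lower, or 24.5% and 17.7% with libraries scaled to total assigned counts). The log2 ratio of replicate 2 over replicate 1 was 0.29 for Mir467d (exact 95% interval 0.24 to 0.35, adjusted p = 7.4e-23) and 0.16 for Mir467c (0.11 to 0.21, adjusted p = 1.2e-09). Both called genes were higher in replicate 2, and with 9 genes tested nothing is read from their number against these shares. Their counts were high, and at high counts this test calls small ratios. The 0.16 of Mir467c was below 0.21, the median absolute ratio over all detected genes, and the 0.29 of Mir467d was above it. A negative binomial test in edgeR, which adds the spread between these libraries (biological coefficient of variation 0.154), called 0 of the 9 and 1 of all 294 genes (0.34%), with 0 of the 9 at an unadjusted p under 0.05. Its spread is a common value over all 294 detected genes, taken from the same 2 libraries. By that measure the differences of the 9 genes lay within the spread typical of detected genes. With 1 library on each side, it cannot tell a difference between the pups from error.

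The other 7 log2 ratios ran from -0.64 to 0.12. Mir467e, the partner of Mir467d in level, had -0.02 (exact 95% interval -0.07 to 0.04), Mir669l -0.04 (-0.17 to 0.09) and Mir669o -0.09 (-0.19 to 0.02). Mir669h, the gene with the fewest counts, had -0.64 (-1.47 to 0.12), an interval wide enough to hold a difference of either sign. The median over the 9 genes was -0.02 and over all detected genes -0.03, and the median absolute ratio was 0.12 against 0.21. Ratios within 0.5 of 0 were seen for 8 of the 9 genes and for 82.7% of all detected genes. With a minimum of 1 count in both libraries 21 cluster genes entered the test, and Mir297a-2 was called too (log2 ratio 1.81, exact 95% interval 0.45 to 3.27, exact binomial adjusted p = 0.022), where 24.8% of 516 genes were called.

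**Figure D4:**
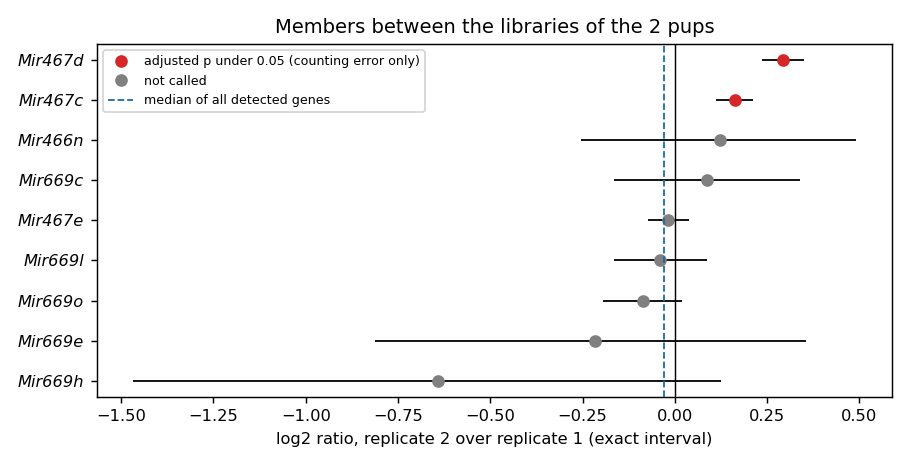
Log2 ratio of replicate 2 over replicate 1 for the 9 detected cluster genes, with exact 95% intervals for counting error and a dashed line at the median of all 294 detected genes (-0.03). Mir467d and Mir467c (red) lie above 0 with narrow intervals, and the intervals of the 7 others (grey) include 0.

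Other clusters hosted by a single locus gave a scale for these levels. The 6 genes of Mir17hg, the host of the miR-17-92 cluster of proliferating cells, were all detected and held 9.24% ± 0.447 of assigned counts, led by Mir17 (45956 CPM ± 2486) and Mir20a (28814 ± 2851). The 7 tabled genes of the Mir290 to Mir295 cluster, known from pluripotent cells and early embryos, held 0.00547% ± 0.000279, with 3 of 7 detected, led by Mir294 (18.2 CPM ± 1.64) and Mir293 (16.9 ± 3.03). The Sfmbt2 cluster's 1.10% lay between them in both libraries. No gene of either list lacked own words, against 42 of 107 here, so the shares compare counted reads and cannot rank the clusters by abundance.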

How the data were processed

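The authors deposited raw read counts, neither pooled nor normalized, with a table for each library and a row for each miRNA gene. Reads were mapped to mm10 and counted over GENCODE M4, per the text files deposited beside the tables. Aligner and counter: not given in the sources used here. Of the 3 count columns, the first is the total of the others in each gene row, and the second, taken as the gene strand from its larger total, was analysed. Totals of unmapped, multimapping and unassigned reads stayed out of library sizes.

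Names and coordinates came from GENCODE M21 (1894 of 1973 identifiers matched, and all 107 cluster genes with the same version). Ratios used edgeR 4.0.16 (TMM) and R 4.3.3, intervals of shares scipy 1.17.1, and DESeq2 1.42.0 size factors were an alternative. edgeR's quasi-likelihood test needs replicates per group and was not used. Simulated counts with known changes were used to check the binomial test. They held counting error alone, so the check does not cover further spread between libraries. Cluster genes with 10 or more counts in each library were named, with the 5 highest of the rest and the 2 highest of each comparison list. The cluster, the lists and the rules were chosen with earlier results of these data known. The share of own words was specified in detail after seeing the data. Both pups carry the same donor identifier in the labels, and only the sample descriptions name them as separate pups.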

Additional observations from a re-analysis of the deposited data

How the results depend on the processing

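The cluster share of 1.10% was 0.940% with unstranded counts, 0.286% of all reads, 0.741% without Mir467c, and 1.03% to 1.17% with either library left out. The 9 detected genes became 21 with 1 count in both libraries, 27 with 1 count in either and 6 with 100 counts in both. They numbered 10 without replicate 1 and 9 without replicate 2. The median level of detected genes (583 CPM) was 499 CPM with unstranded counts. The 2 called genes, both higher in replicate 2, became 0 with the negative binomial test. The median log2 ratio of the cluster genes (-0.017) had no stable sign: it was -0.011 with unstranded counts, 0.070 with 1 count and 0.068 with 100 counts in both libraries, 0.013 with DESeq2 size factors and 0.049 with total assigned counts. Of single genes not called, Mir467e turned to 0.015 (100 counts), 0.013 (DESeq2) and 0.049 (total counts), and Mir669l to 0.027 (total counts). Mir467c and Mir467d kept their call and sign under each scaling, filter and count column tried. The call was lost only with the negative binomial test. That test's spread is common to all 294 detected genes and comes from the same 2 libraries, so it cannot settle their stability. The 41 genes at 0 without own words stayed 41 with words of 18 or 22 bases, alternatives chosen after seeing the data. No paired analysis was possible because both libraries belong to 1 group. Depth limits what can be said below 2.33 CPM in replicate 2.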
